A study of Mus musculus with 30 samples.

Results

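The middle and distal optic stalk (OS) of the E12 mouse embryo was compared between its dorsal and its ventral side, with the position along the stalk held equal. The members were chosen by their labels alone. Of the 30 libraries of the series, 12 were labelled as dorsal or ventral OS of the distal or middle section, 5 dorsal (3 distal, 2 middle) and 7 ventral (3 distal, 4 middle). The 4 proximal OS libraries were left out, since they would have added a section with another neighbourhood. The 14 libraries of the presumptive retinal pigmented epithelium (pRPE) served for a test of whether the contrast differed there and, with the proximal ones, for 1 alternative fit on all 30 libraries. All libraries carry the genotype label Control and the age E12. By the study's methods the controls were littermates, without Dct-Cre, of mice that carry this transgene (active in pigmented lineages of the eye, the OS among them) with floxed Baf155, also called Smarcc1. The methods give 4 control embryos at E12, fewer than the libraries of either side, so some libraries of a side share an embryo. Libraries of opposite sides may share one too. All p-values over libraries treat them as independent and may be too small or, where the sides are paired, too large. The labels do not say which library came from which embryo, and the study's own list of mouse IDs was not used here. The libraries were made by Geo-seq, in which small areas of a frozen head section are cut out by laser capture microdissection and their cDNA is amplified and sequenced. Each library is thus a bulk sample of the captured area in which fewer cells of a type and less RNA per cell cannot be told apart. Each side was present in both batches of the labels, with 2 dorsal and 3 ventral libraries in batch A and 3 dorsal and 4 ventral ones in batch B.

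The OS is the tube of neuroectoderm that joins the optic cup to the forebrain and later becomes the path of the optic nerve, in which stalk cells turn into astrocyte precursors. Its dorsal wall is continuous with the pigmented outer layer of the cup, where the transcription factors Mitf and Otx2 drive pigment cell genes. Its ventral wall borders the optic fissure and is known for Pax2, Vax1 and Vax2 under the influence of Hedgehog signalling from the midline. Genes of the pigment programme, of dorsal and ventral eye patterning and of the signalling pathways that act along this axis were therefore examined first.

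The counts were sparse, and this touches every result. A row is 1 annotated gene of the deposited table. Total counts per library ranged from 1965657 to 5400977 on the dorsal side and from 1421918 to 2813079 on the ventral side. Rows with a count numbered 4158 (distal 33), 3505 (distal 63), 6769 (distal 83), 3706 (middle 34) and 9315 (middle 84) in the dorsal libraries. In the ventral libraries they numbered 2244 (distal 38), 1730 (distal 68), 4853 (distal 88), 4436 (middle 9), 5250 (middle 39), 3029 (middle 69) and 4738 (middle 89). The ranges overlapped, the libraries with the most rows being dorsal (83 and 84) and those with the fewest ventral (38 and 68). The means were 5491 ± 2508 (SD, n = 5) and 3754 ± 1401 (SD, n = 7), a difference of 1736 rows. A two-sided exact permutation over the 792 assignments gave p = 0.155, and p = 0.176 when labels were exchanged only within section and batch (108 assignments). Over the 3 measures of this kind (rows with a count, total count, mitochondrial share) the adjusted p was 0.427. Within batch A the difference was -44.7 rows and within batch B 2942 rows, and it was 780.2 rows without dorsal 84. In the 5 pairs of dorsal and ventral libraries of the same section, batch and number series, the dorsal library had more rows in 4, the exception being 34 against 39 (3706 against 5250). Mitochondrial rows took 42.4% ± 4.46 of the dorsal counts (SD, n = 5) and 44.8% ± 5.39 of the ventral ones (SD, n = 7).

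**Figure D1:**
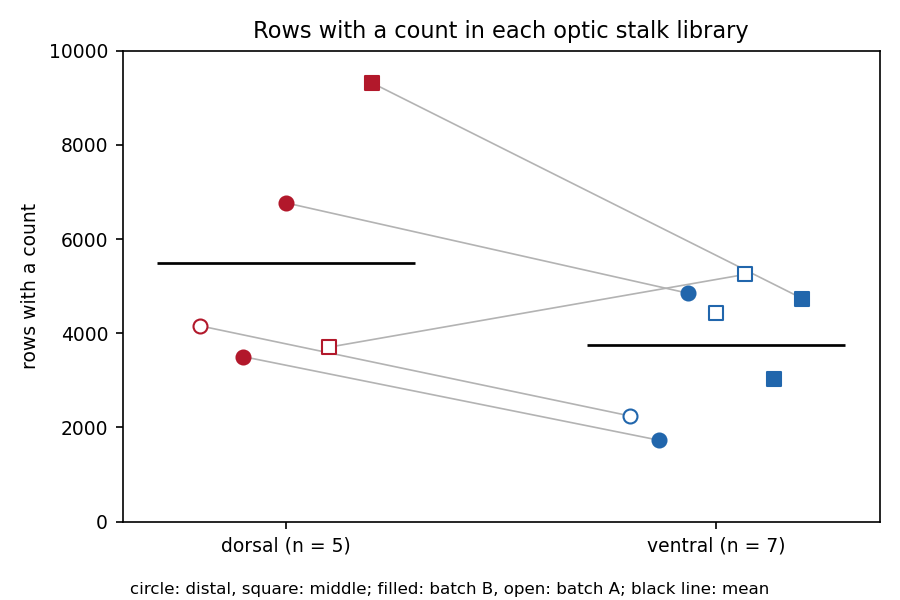
Number of rows with a count (vertical axis, from 0) in each of the 5 dorsal and 7 ventral libraries; circles are distal and squares middle sections, filled symbols batch B and open symbols batch A, black lines the group means and grey lines the 5 pairs of the same section and batch. The dorsal library lies above its ventral partner in 4 of the 5 pairs, and the groups overlap.

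A further limit concerns the names of the rows. Of 30 genes that nearly every cell uses, 18 had no count in the 12 libraries, Actb, Eef1a1 and Tpt1 among them, and 89 rows of ribosomal proteins together held 0.449% of the nuclear counts. The positions of the rows (GRCm38, GENCODE release M21, which named 89.5% of the rows with counts) were therefore moved along each chromosome in steps of 2 kb up to 400 kb either way. At each step the counts of the rows that came to lie over 324 widely used genes were averaged as log10(count + 1). On chromosomes 6 and 15 the score was highest at a shift of -2 kb, and only 4 and 2 of the 401 shifts scored above the position as listed. On chromosome 10 it was highest at -164 kb, where it reached 3.19 against 1.55 at the position as listed, and 301 of the 401 shifts scored above the latter. Values are thus given for the row listed under a symbol, with its chromosome. On chromosomes 6 and 15 the listed positions thus scored near the best, as a mean over 12 and 18 target genes. Less clearly so, only 24, 15 and 20 of the 401 shifts scored above the listed position on chromosomes 13, 14 and 18, with the highest score at -2, 68 and 48 kb. Such means place no single row, and Gapdh, on chromosome 6, was counted in only 1 of 5 dorsal and 2 of 7 ventral libraries. The row of Trpm3 is a separate case, since this gene of 856 kb is longer than the largest shift tried. For any row, and most of all on the other chromosomes, the symbol may not mark the locus the counts came from. The cause was not tested.

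**Figure D2:**
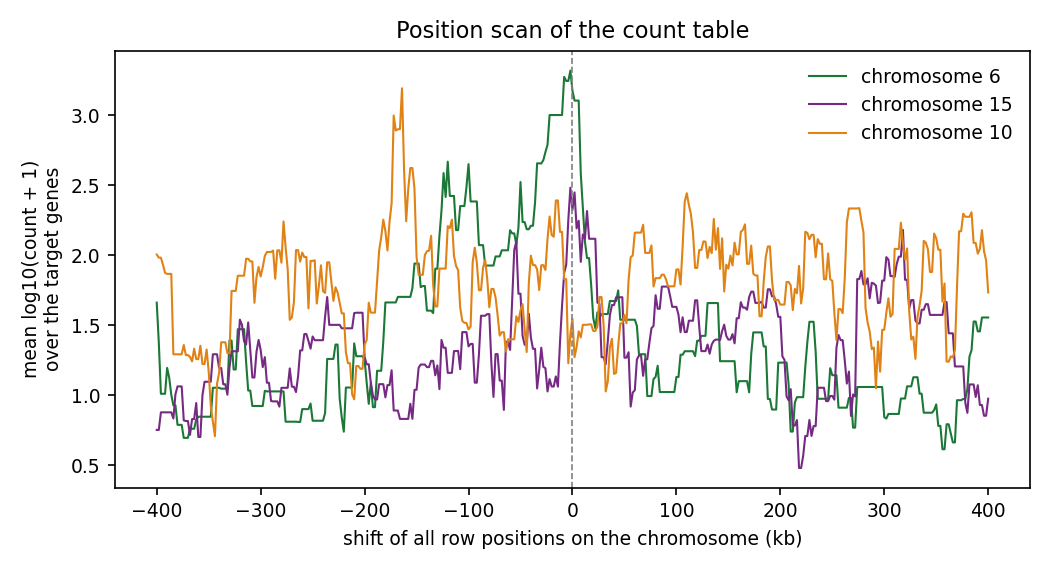
Mean log10(count + 1) over widely used genes (vertical axis) after moving all row positions of a chromosome by the shift on the horizontal axis, in kb, for chromosomes 6, 15 and 10; the dashed line marks the position as listed. The curves of chromosomes 6 and 15 peak at -2 kb and that of chromosome 10 at -164 kb.

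Of 56484 rows, 4492 had more than 10 counts in at least 3 of the 12 libraries and entered edgeR's quasi-likelihood test, with section and batch as covariates. A row was called where its log2 fold change went beyond 0.58 and its adjusted p was under 0.05. No row was called (0% of 4492, the smallest adjusted p being 0.367), although 396 rows had an unadjusted p under 0.05. Of these, 334 were higher (7.44% of all rows tested) and 62 lower (1.38%) on the dorsal side. When any 1 library was left out, 188 (without dorsal 84) to 398 rows were higher and 23 (without ventral 88) to 76 lower. With the number of rows with a count added as a covariate, 156 were higher and 227 lower, so the balance turned. Other tools called more. DESeq2 called 622 rows higher (13.8%) and 56 lower (1.25%). Limma voom called 11 rows, all of them higher (0.245%), and limma on log2(CPM + 1) 1 row, Trpm3. The median log2 fold change over all rows tested was 0.97. It was 2.71 without ventral 88, 0.52 without dorsal 83, 0.61 without ventral 68, 0.28 within batch A and 0.26 without ventral 38 and 68. It was -0.02 with that covariate in the edgeR fit, and DESeq2 with it called 177 rows higher and 122 lower. Single rows are to be read against a shift of the whole scale, whose size is thus poorly fixed. In the 487 rows of chromosomes 6 and 15 the median was 0.975, and 34 were higher and 2 lower at an unadjusted p under 0.05 (edgeR). The spread was wide, with a common dispersion of 6.29 and 42.5% of the values at 0, so the fitted folds of rows with a group near 0 are large, uncertain and no bounds.

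The pigment genes Mitf, Gpnmb and Slc45a2 were counted in 4 or 5 of the 5 dorsal libraries and in 1 to 3 of the 7 ventral ones, without a call by edgeR. Levels are in CPM, counts relative to the library total after scaling by the trimmed mean of M-values, and dorsal values are in the order distal 33, 63, 83, then middle 34, 84. The row of Mitf, the master regulator of pigment cells (chromosome 6, 97807052 to 98021349), held 57.6, 176, 132, 0 and 38.5 CPM on the dorsal side and 0 to 44.9 CPM with a median of 0 on the ventral side. It was thus counted in 4 of 5 dorsal libraries and in 1 of 7 ventral ones, middle 39, and the groups overlapped, since ventral 39 lay above dorsal middle 34 and 84. The means were 80.7 ± 71.5 CPM (SD, n = 5) against 6.41 ± 17 CPM (SD, n = 7), 12.6-fold apart, with an edgeR log2 fold change of 9.32 ± 4.92 (SE), adjusted p = 0.693. Without ventral library 39 the ventral side had no count and the dorsal mean was at least 61.6-fold above the floor of 3 counts per library. DESeq2 gave Mitf an adjusted p of 0.00115 (adjusted p 0.00115 to 1 over 33 alternatives).

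Gpnmb, a glycoprotein of the melanosome membrane (chromosome 6, 49036546 to 49070929), had 183, 912, 378, 5.1 and 106 CPM in the dorsal libraries and 0 to 12.6 CPM with a median of 0 in the ventral ones. All 5 dorsal libraries were counted against 3 of 7 ventral libraries, and each dorsal library was above its ventral partner, yet middle 34 lay below ventral middle 69 and 89. The means were 317 ± 359 CPM (SD, n = 5) against 3.67 ± 5.93 CPM (SD, n = 7), 86.3-fold apart (45.8- to 146-fold when any 1 library was left out, lowest without dorsal 63 and highest without ventral 69). The edgeR fit gave a log2 fold change of 9.49 ± 3.46 (SE), adjusted p = 0.367 (unadjusted p = 0.0143), and DESeq2 an adjusted p of 2.43e-05 (adjusted p 2.43e-05 to 1 over 34 alternatives). Slc45a2, a transporter that melanosomes need for melanin synthesis (chromosome 15, 11000721 to 11029233), held 0, 1537, 363, 647 and 178 CPM on the dorsal side. On the ventral side 6 of 7 libraries were at 0 and middle 69 held 1297 CPM, as much as a high dorsal library. The unadjusted p was 0.000854 and the adjusted p 0.367 in edgeR, against 2.7e-07 in DESeq2 (adjusted p 5.8e-12 to 1 over 33 alternatives). The means were 2.94-fold apart, 1.6-fold without dorsal 63 and at least 391-fold without ventral 69.

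Of 22 pigment genes listed, 11 had a count and 6 were tested. Of these, Slc45a2 and Gpnmb had an unadjusted p under 0.05 in edgeR (7.44% of all rows were higher at that threshold), none was lower, and the median log2 fold change was 7.77 against 0.97 over all rows. The remaining 3 tested genes beside Mitf, named here in addition to the rule, overlapped widely between the sides. Tfec, a relative of Mitf, had 71.6 to 935 CPM dorsally (median 264) and 0 to 1448 CPM ventrally (median 458). Trpm1, the channel gene that Mitf activates in melanocytes, had 1.74 to 275 CPM dorsally (median 128) and 0 to 429 CPM ventrally (median 19.6). Oca2, a melanosome anion channel, had 0 to 44.4 CPM dorsally (median 30.8) and 0 to 98.5 CPM ventrally (median 0). DESeq2 called Oca2 higher (adjusted p 0.0264), besides Mitf, Gpnmb and Slc45a2. Otx2 was counted in dorsal distal 83 alone (81.5 CPM), and Tyr, Tyrp1, Dct, Pmel and Mlana were at 0 in all 12 libraries. The summed level of the list was 441 to 3212 CPM dorsally and 0 to 1526 CPM ventrally, so the groups overlapped.

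**Figure D3:**
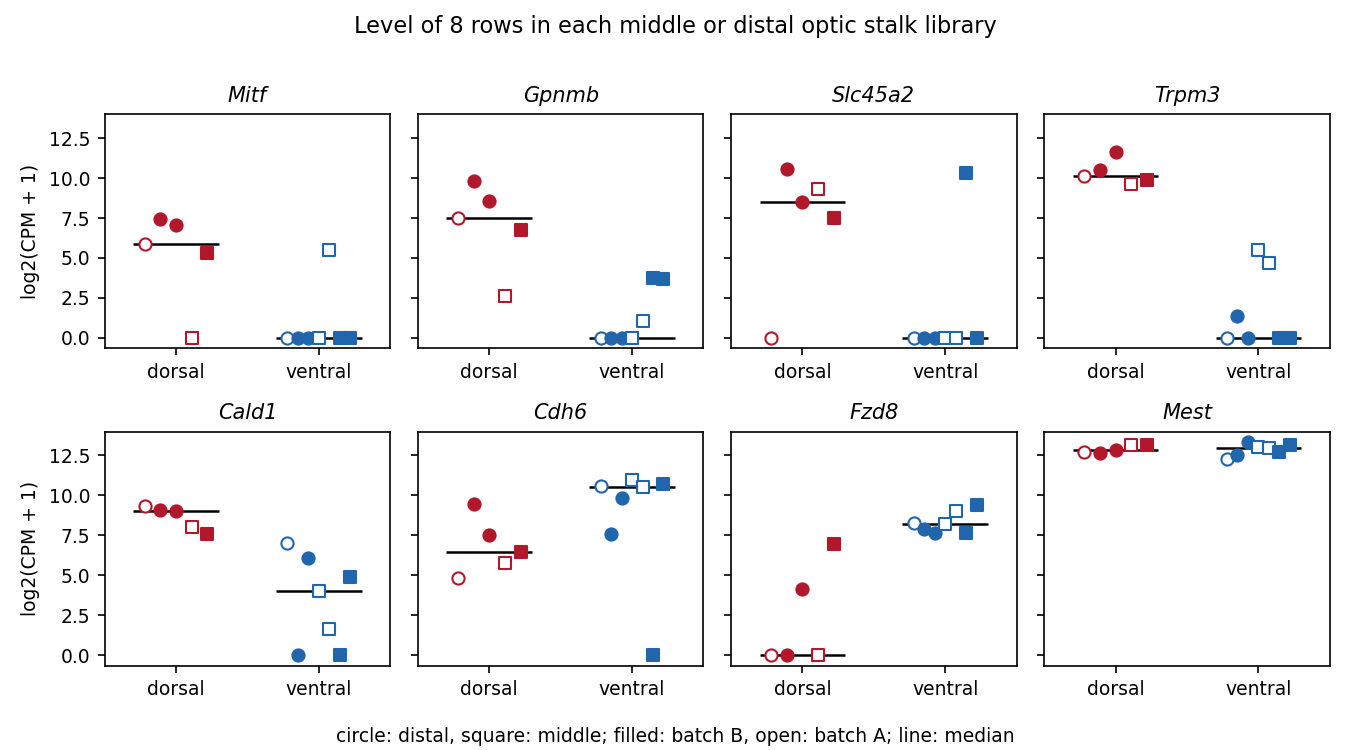
Level of 8 rows as log2(CPM + 1) (vertical axis) in each library, dorsal in red and ventral in blue; circles are distal and squares middle sections, filled symbols batch B and open symbols batch A, lines the group medians. Trpm3 and Cald1 have every dorsal library above every ventral one, Fzd8 the reverse, Mitf, Gpnmb, Slc45a2 and Cdh6 overlap through 1 or 2 libraries, and Mest has like levels on both sides.

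Among genes of the ventral eye and stalk, Cdh6 and Zic4 were lower on the dorsal side in level, without a call by edgeR, and Pax2 was uneven. Cdh6, a cadherin of neural epithelia (chromosome 15, 13028701 to 13173675), had 27, 706, 186, 54.4 and 85.1 CPM on the dorsal side and 0 to 1988 CPM with a median of 1465 on the ventral side. Ventral library 69 was at 0 and ventral 68 at 192 CPM, whereas the other 5 ventral libraries held 910.3 to 1988 CPM and lay above every dorsal one. The ventral mean was 5.24-fold the dorsal mean (4.3- to 12.6-fold when any 1 library was left out, lowest without dorsal 33 and highest without dorsal 63). The edgeR fit gave a log2 fold change of -2.65 ± 1.75 (SE), adjusted p = 0.824, and DESeq2 gave an adjusted p of 0.387 (adjusted p 0.387 to 1 over 34 alternatives). Zic4, a zinc finger factor of the neural midline (chromosome 9), was at 0 in all 5 dorsal libraries and had 0 to 169 CPM with a median of 24.7 on the ventral side, with a count in 4 of 7. The ventral mean was at least 36.3-fold above the dorsal floor of 3 counts per library (at least 21.7-fold without ventral 69). Its edgeR unadjusted p was 0.0264 and its adjusted p 0.429, while DESeq2 called it with an adjusted p of 0.0124 (adjusted p 0.0124 to 1 over 32 alternatives).

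Pax2, the paired box factor that the stalk requires for closure of the fissure (chromosome 19), had 0, 0, 0, 173 and 105 CPM in the dorsal libraries. It was at 0 in the 3 dorsal distal libraries and counted in both dorsal middle ones, and in 6 of 7 ventral libraries at 0 to 646 CPM with a median of 18.4. The ventral maximum was middle 69, without which the ventral mean was 0.226-fold the dorsal one instead of 1.86-fold (3.94-fold without dorsal 34), and the edgeR adjusted p was 0.934. Of 24 genes listed for the ventral eye and stalk, 12 had a count and 4 were tested. At an unadjusted p under 0.05 in edgeR, 1 of the 4 was lower (Zic4, against 1.38% of all rows) and none higher, with a median log2 fold change of -2.75. Tenm3, a teneurin adhesion protein and the other gene tested, was counted in 3 dorsal libraries and 1 ventral one, at 0 to 99.5 CPM dorsally (median 74.8) and 0 to 182 CPM ventrally (median 0). DESeq2 called Zic4 lower and Tenm3 higher (adjusted p 0.0335), where edgeR gave Tenm3 an adjusted p of 0.904. The summed level was 27.7 to 707 CPM dorsally and 375 to 2077 CPM ventrally, without a gap between the sides. The defining stalk factors were thus thinly covered: Vax1 was counted in 1 ventral library, Vax2 in none of the 12, and Pax6, found in stalk and cup alike, was at 0 in all 30. Other members that were too sparse to test went either way. Zic1 was counted in 3 dorsal libraries and no ventral one (up to 58.1 CPM), Ephb2 in 1 dorsal and no ventral one, and Nr2f2 in 2 dorsal (up to 135 CPM) and 1 ventral one (1.43 CPM). Pax5 and Pax8 were counted in 1 ventral library each and no dorsal one, and Bmpr1b and Chrdl1 in 1 library of each side. None of the 13 dorsal eye genes passed the filter. Among them Tbx2, Tbx3, Cyp1b1 and Msx2 had counts in 1 or 2 dorsal libraries and no ventral one, Smoc1 in 1 library of each side and Efnb2 in 1 ventral library alone, while Bmp4, Tbx5 and Aldh1a1 had none in the 12.

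**Figure D4:**
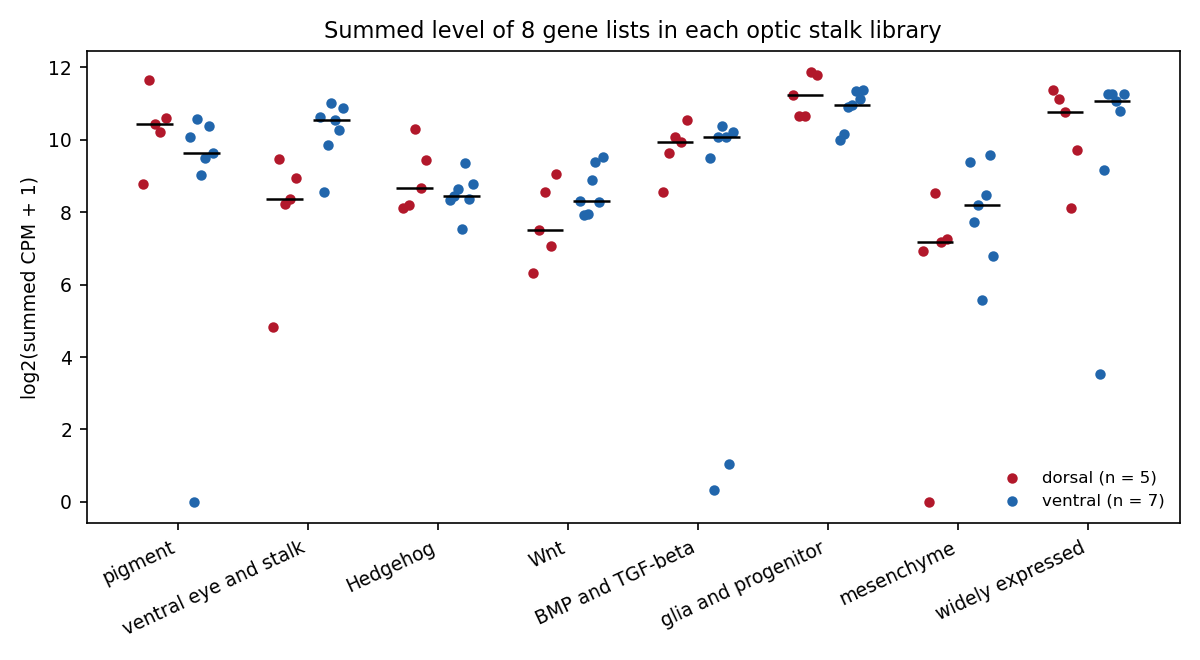
Summed level of 8 gene lists as log2(summed CPM + 1) (vertical axis) in the 5 dorsal (red) and 7 ventral (blue) libraries, with group medians as lines. Dorsal and ventral libraries overlap in each of the 8 lists, and single libraries near 0 mark lists without a count there.

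The receptors and modifiers of the signalling pathways were mostly uncounted or uneven, and Fzd8 was the exception. Fzd8, a Wnt receptor of the frizzled family (chromosome 18), had 0, 0, 16.4, 0 and 124 CPM on the dorsal side and 197 to 677 CPM with a median of 290.4 on the ventral side. Every ventral library lay above every dorsal one, and 3 of the 5 dorsal libraries had no count. The ventral mean was 12.4-fold the dorsal mean (9.91- to 84.8-fold when any 1 library was left out, highest without dorsal 84). The edgeR fit gave a log2 fold change of -5.05 ± 2.32 (SE), adjusted p = 0.541, and DESeq2 an adjusted p of 0.0311 (adjusted p 3.87e-05 to 1 over 34 alternatives). Of 31 Wnt genes listed, 15 had a count and 5 were tested, of which Fzd8 was lower at an unadjusted p under 0.05 and none higher in edgeR (1.38% and 7.44% of all rows). DESeq2 called Fzd8 lower and Fzd1 higher, the latter with an adjusted p of 0.0481. The other 4 included Gsk3b, the kinase of the destruction complex, with 0 to 4.25 CPM dorsally (median 0.699) and 0.534 to 25.8 CPM ventrally (median 4.13). Tcf7l1, a transcription factor of the pathway on chromosome 6, had 10.9 to 129 CPM dorsally (median 72) and 0 to 144 CPM ventrally (median 16.7), and Fzd1 and Fzd3 were counted in 2 dorsal libraries and 1 ventral one each. The summed level of the Wnt list was 78.8 to 526 CPM dorsally and 239.9 to 733 CPM ventrally, and the median log2 fold change of the 5 was 2.35.

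Of 17 Hedgehog genes, 11 had a count and 5 were tested, and 2 were higher at an unadjusted p under 0.05 in edgeR (7.44% of all rows). Both are binding partners of the ligand. Boc, a coreceptor (chromosome 16), had 22.4, 123, 0, 75.2 and 0 CPM and 1 ventral library with a count (1.46 CPM). Hhip, the decoy receptor (chromosome 8), had 0, 56, 19.5, 0 and 56.4 CPM and no ventral count. Their edgeR adjusted p was 0.367 and 0.376, whereas DESeq2 called both (adjusted p 0.0151 and 0.0459). Each was counted in 3 of 5 dorsal libraries, so both groups overlapped at 0. The signal transducer Smo and the pathway regulator Kif7 were counted in all 12 libraries, Smo at 6.29 to 866 CPM dorsally (median 246) and 0.476 to 366 CPM ventrally (median 266). Gli1, a transcription factor and target of the pathway, was counted in 1 library of each side, and the ligand Shh in none. The median log2 fold change of the 5 was 4.85, and the summed level of the list was 278 to 1261 CPM dorsally and 185 to 655 CPM ventrally.

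Of 29 genes of BMP and TGF-beta signalling, 14 had a count and 4 were tested, with none at an unadjusted p under 0.05 in edgeR in either direction, none called by DESeq2 and a median log2 fold change of 0.56. Id3, a target gene, had 249 to 516 CPM dorsally (median 413) and 0 to 923 CPM ventrally (median 505). Chrd, a BMP antagonist, had 0 to 130.3 CPM dorsally (median 128) and 0 to 198 CPM ventrally (median 28.6). The receptor Tgfbr1 had 0 to 579.9 CPM dorsally (median 476) and 0 to 974 CPM ventrally (median 175). Id2, another target, was counted in 2 dorsal libraries and 1 ventral one. Of 21 FGF and MAPK genes, 12 had a count and 6 were tested, none at an unadjusted p under 0.05 in edgeR. The receptor Fgfr1 had 0.425 to 95.6 CPM dorsally (median 28.2) and 0 to 15.5 CPM ventrally (median 1.46). Etv5, a transcription factor that FGF induces, had 0 to 52.3 CPM dorsally (median 0) and 0 to 9.29 CPM ventrally (median 0). Map2k1, a kinase of the cascade, had 0 to 56.6 CPM dorsally (median 0) and 0 to 121 CPM ventrally (median 0). DESeq2 called Map2k1 as higher (adjusted p 0.0109), against an edgeR adjusted p of 0.824. None of 15 genes of retinoic acid metabolism and its receptors passed the filter. The sides overlapped for each of these genes.

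Rows whose dorsal and ventral libraries did not overlap at all were few: 35 were higher in every dorsal than in any ventral library (0.779% of 4492) and 4 were lower (0.0890%). In the 5 matched pairs, 175 rows (3.90%) were higher on the dorsal side in all pairs and 49 (1.09%) lower. Of the 35 rows, 31 had no count in ventral library 68, 30 none in 69 and 28 none in 38, the 3 ventral libraries with the fewest rows counted, and 5 had no ventral count at all. Without libraries 38 and 68 the counts were 43 and 15, and with levels relative to the nuclear count they were 22 and 5.

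**Figure D5:**
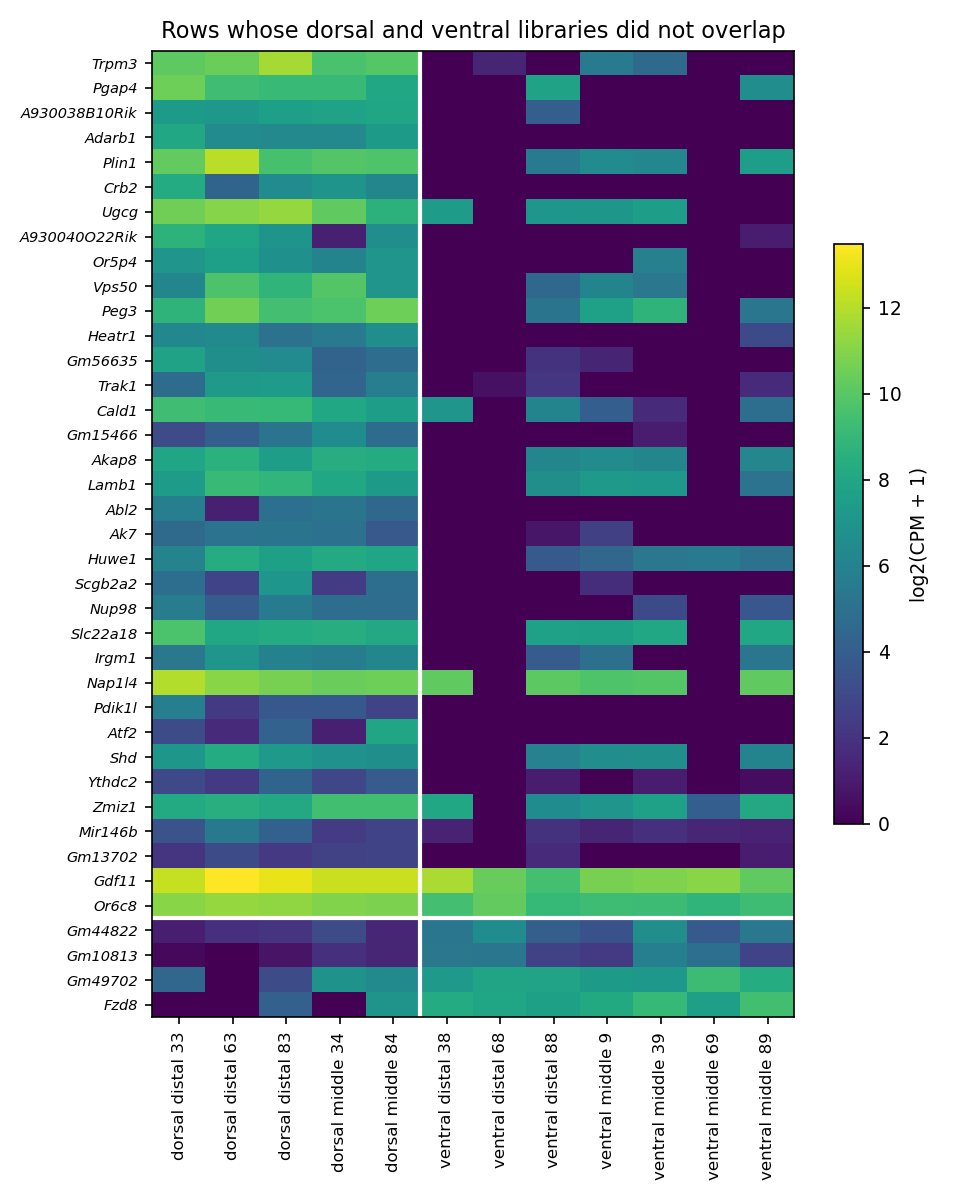
Heat map of log2(CPM + 1) for the 35 rows higher in every dorsal library (upper block) and the 4 lower in every dorsal library (lower block), with the 5 dorsal libraries left and the 7 ventral libraries right of the white line. Columns ventral 38, 68 and 69 are dark in most of the upper block, where 28, 31 and 30 of the 35 rows have no count.

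Trpm3, a cation channel gene of the melastatin family (chromosome 19, 22139046 to 22995410), was the row named here that most analyses called. Its dorsal libraries held 1106, 1425, 3235, 794 and 958 CPM and the ventral ones 0 to 44.6 CPM with a median of 0. Even the lowest dorsal library, 794 CPM, was far above the highest ventral one. The row was named because its groups did not overlap, so separation within each section and batch follows from that choice. The means were 1503 ± 996 CPM (SD, n = 5) against 10.1 ± 17.6 CPM (SD, n = 7), 149-fold apart (106- to 349-fold when any 1 library was left out, lowest without dorsal 83 and highest without ventral 9). The edgeR fit gave a log2 fold change of 10.21 ± 2.38 (SE), adjusted p = 0.367 (unadjusted p = 0.000542). By contrast, limma on log2(CPM + 1) gave a difference of 8.85 ± 1.43 (SE) with an adjusted p of 0.0402. Limma voom gave 0.00287 and DESeq2 5.92e-05 (adjusted p 5.92e-05 to 1 over 34 alternatives). It was past the threshold in 9 of 34 alternatives, among them edgeR within batch B and within the distal sections.

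On chromosome 6, Cald1 and Vps50 did not overlap. Cald1, caldesmon of the actin cytoskeleton (chromosome 6, 34598500 to 34775473), had 644, 534, 519.6, 257 and 188 CPM against 0 to 129.9 CPM with a median of 15.1. The means differed 12.4-fold (10.6- to 22.9-fold when any 1 library was left out, highest without ventral 38), with an edgeR log2 fold change of 3.70 ± 1.66 (SE), adjusted p = 0.518. Vps50, a subunit of an endosomal tethering complex (chromosome 6, 3498382 to 3603531), had 71.1, 849, 444, 939.9 and 128 CPM against 0 to 67.6 CPM with a median of 0. The ratio of means of Vps50 was 26.5 (47.9 without ventral 9), with an edgeR adjusted p of 0.393. DESeq2 gave Cald1 and Vps50 adjusted p-values of 0.104 and 0.0263. In Cald1 the 3 dorsal distal libraries were above both middle ones, while in Vps50 the highest dorsal library was middle 34. These 2 rows were chosen for their chromosome after their values were seen.

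Other rows of this kind lie on other chromosomes or were not matched to a position. Adarb1, an RNA editing enzyme (chromosome 10), had 259.9, 88.2, 81.5, 81.6 and 159 CPM and no ventral count, at least 99.7-fold above the ventral floor (at least 76.3-fold without dorsal 33). Plin1, a lipid droplet coat protein (chromosome 7), had 1201, 4329.7, 759, 950.0 and 867 CPM against 0 to 185 CPM with a median of 47.9. Pgap4 had 1441, 655, 565, 537 and 263 CPM against 0 to 214 CPM with a median of 0. A930038B10Rik had 164, 147, 194, 216 and 239 CPM, with a ventral count in distal 88 alone (15.1 CPM). Each of these 4 rows had at least 4 ventral libraries without a count save Plin1, which had 3. The ratio of means was 28.7 for Plin1 (16.7 without dorsal 63 and 46.2 without ventral 89), 15.6 for Pgap4 (42.9 without ventral 88) and 89 for A930038B10Rik (at least 139 without ventral 88). The limma voom adjusted p of Adarb1, Pgap4 and A930038B10Rik was 0.00282, 0.0302 and 0.00972, against 0.367, 0.581 and 0.367 in edgeR. DESeq2 called all 4 (adjusted p 7.02e-05 to 0.0152). On the lower side, beside Fzd8, the rows Gm49702, Gm10813 and Gm44822 had dorsal means of 46.2, 1.02 and 3.24 CPM and ventral means of 266, 25.3 and 44.5 CPM, and all 3 are predicted genes. Without dorsal 34 the ratios of means of Gm49702 and Gm44822 moved from 5.75 to 9.36 and from 13.8 to 20.9. The dorsal mean of Gm10813 was below the mean floor of 3 counts per library (1.37 CPM), so no ratio is given.

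Rows counted in at least 10 of the 12 libraries, 1014 nuclear rows, depend least on which rows a library detected. The row of Gdf11 (chromosome 10, 128882295 to 128891718) held 5023, 11434, 8327, 5500.5 and 5335 CPM on the dorsal side and 707 to 3442 CPM with a median of 1704 on the ventral side. The groups did not overlap and every one of the 12 libraries was well counted, the highest being dorsal distal 63. The means were 7124 ± 2751 CPM (SD, n = 5) against 1775 ± 886 CPM (SD, n = 7), 4.01-fold apart (3.41- to 4.76-fold when any 1 library was left out). The edgeR fit gave a log2 fold change of 1.99 ± 0.469 (SE), adjusted p = 0.367, unadjusted p = 0.000609 (adjusted p 0.0938 to 1 over 34 alternatives). Gdf11 itself encodes a TGF-beta family ligand. Moved by the -164 kb that scored highest on chromosome 10 the interval of this row overlaps Pmel, the structural protein of melanosome fibrils. The row of Pmel had 123 counts in all 30 libraries against 378423 for the row of Gdf11. Which of the loci the counts came from was not tested. In the pRPE the same row held 1898 to 10275 CPM (n = 14, scaled over all 30 libraries).

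The row of Ltbp3 (chromosome 19), with 40750.0, 21906, 42572, 42280.0 and 29405 CPM and 12421 to 26644 CPM with a median of 18833, overlapped through dorsal distal 63. Its means were 1.96-fold apart (1.86- to 2.14-fold when any 1 library was left out), with an edgeR log2 fold change of 0.95 ± 0.233 (SE), adjusted p = 0.367. Or6c8, listed as an odorant receptor, was 3.24-fold higher in mean, from 2188 ± 327 CPM (SD, n = 5) against 675 ± 257 CPM (SD, n = 7), without overlap. Rian, a maternally expressed noncoding RNA (chromosome 12), had 345, 289.8, 1012, 1158 and 1613 CPM against 0.534 to 819 CPM with a median of 129.9 and overlapped through ventral 39 alone. Without it the ratio of means was 7.64 in place of 4.09. Huwe1, a ubiquitin ligase (chromosome X), had 64.3, 328, 200.2, 303 and 239 CPM against 0 to 48.1 CPM with a median of 20.7. These 5 had the smallest unadjusted p among higher rows of this set, from 0.000609 (Gdf11) to 0.0373 (Huwe1), with adjusted p between 0.367 and 0.495 in edgeR.

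Among the 5 lower rows of the set, single ventral libraries carried much of the level of Nop58, Wasf2 and Gm15506, while 1110038B12Rik and Gm10813 were spread over several. Nop58, a small nucleolar RNA-binding protein (chromosome 1), held 0.699, 0.869, 0.608, 0 and 2.3 CPM on the dorsal side. Its ventral values, 0.796 to 1106 CPM with a median of 4.42, were led by distal 68. Its dorsal mean lay below the mean floor of 3 counts per library (1.37 CPM), so no ratio is given. Wasf2, an actin regulator (chromosome 4), had 0.233, 11.3, 0.608, 0.425 and 0 CPM against 0 to 457 CPM with a median of 31, led by ventral 69 and 89. Its ratio of 44.6 became 21.7 without ventral 69, and without dorsal 63 the dorsal libraries were below the floor of 3 counts each. Gm15506 had 37.5 ± 18.6 CPM (SD, n = 5) against 654 ± 991 CPM (SD, n = 7), a ratio of 17.5, or 7.7 without ventral 68. The row 1110038B12Rik had 0.547 ± 0.324 CPM (SD, n = 5) against 59.9 ± 66.7 CPM (SD, n = 7). These 4 rows and Gm10813 had adjusted p-values from 0.402 to 0.561 in edgeR, and DESeq2 called Nop58, Wasf2, 1110038B12Rik and Gm10813 (adjusted p 0.00421 to 0.0172). For contrast, Mest, an imprinted gene expressed from the paternal copy (chromosome 6, 30723547 to 30748465), was at 7714 ± 1197 CPM (SD, n = 5) against 7654 ± 1846 CPM (SD, n = 7). The ratio was 1.01, with an edgeR log2 fold change of 0.06 ± 0.275 (SE), adjusted p = 1 (chosen after its values were seen).

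Markers of other cells were examined in the same way. Vim, an intermediate filament of neuroepithelium and glia, was counted in all 12 libraries, at 1131 to 3266 CPM dorsally (median 2196) and 262 to 2388 CPM ventrally (median 1725). Notch1, a receptor of progenitors, was counted in 10. Of 19 glia and progenitor genes, 13 had a count and 5 were tested. Slc1a3, a glial glutamate transporter on chromosome 15, and Nfia, a gliogenic factor on chromosome 4, were higher at an unadjusted p under 0.05 in edgeR (7.44% of all rows), and Notch2 was lower (1.38% of all rows). Slc1a3 had 0, 17.8, 54.2, 451 and 6.9 CPM and no ventral count, at least 78.8-fold above the ventral floor but at least 14.7-fold without dorsal 34, with an edgeR adjusted p of 0.367 and a DESeq2 one of 0.00276. Nfia was counted in 2 dorsal and 2 ventral libraries and Notch2 in 1 dorsal and 4 ventral ones, at up to 102 CPM.

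Of 15 neuronal genes, 8 had a count and 4 were tested, none at an unadjusted p under 0.05 in edgeR. DESeq2 called Nefh and Isl1 higher (adjusted p 0.0315 and 0.01), against 0.693 and 0.824 in edgeR. Limma on log2(CPM + 1) gave Nefh an unadjusted p of 0.00853 and an adjusted p of 0.33. Nefh, a neurofilament subunit, had 3.96 to 81.1 CPM dorsally (median 37.7) and 0 to 28.7 CPM ventrally (median 0). Elavl3, a neuronal RNA-binding protein, had 5.1 to 91.4 CPM dorsally (median 76) and 25.8 to 446 CPM ventrally (median 78.5). The Nefh means were 9.26-fold apart, and the ventral mean rested on distal 88, since the only other ventral count was 1 read in middle 69. Isl1, a factor of ganglion cells and motor neurons, was counted in 2 dorsal libraries and 1 ventral one. Of 22 proliferation genes, 12 had a count and 5 were tested, of which 1 was higher at an unadjusted p under 0.05 in edgeR (7.44% of all rows). This was Cdkn1b, a brake on the cell cycle (chromosome 6), with 116, 70.4, 38.3, 0 and 0 CPM and no ventral count. Its adjusted p was 0.472 in edgeR and 0.029 in DESeq2. Bub1b, a mitotic checkpoint kinase, had 0 to 56 CPM dorsally (median 10.7) and 0 to 21.7 CPM ventrally (median 0). Top2a, a topoisomerase of dividing cells, was counted in 2 dorsal libraries and 1 ventral one. Mcm7, a subunit of the replication helicase, had 221 to 667 CPM dorsally (median 395) and 0.476 to 766 CPM ventrally (median 546).

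Mesenchyme, blood, vessel and macrophage markers, which would come from tissue around the stalk, were thin on both sides. Their lists had 7 of 17, 3 of 11, 3 of 11 and 4 of 11 genes with a count, and 3, 1, 1 and 0 genes tested, with none at an unadjusted p under 0.05 in either direction (edgeR) and none called by DESeq2. The summed mesenchyme level was 0 to 366 CPM dorsally and 46.9 to 764 CPM ventrally. Its best counted member, Col1a2, a fibrillar collagen chain on chromosome 6, had 0 to 199.6 CPM dorsally (median 0) and 0 to 764 CPM ventrally (median 39). Col3a1, another collagen, had 0 to 106 CPM dorsally (median 7.48) and 0 to 33.5 CPM ventrally (median 0.267), and the receptor Pdgfrb was counted in 2 libraries of each side. Twist1, Twist2, Prrx1, Prrx2, Foxc1 and Foxc2 were at 0 in all 12. Summed blood markers were 0 to 72 CPM dorsally and 0 to 94.7 CPM ventrally. Of the globins Hba-x, an embryonic alpha globin, was counted in 3 dorsal and 2 ventral libraries, while the beta globins were at 0. Summed vessel markers were 36.5 to 129 CPM dorsally and 0 to 549 CPM ventrally. Tek, the angiopoietin receptor, was counted in 4 libraries of each side, and Cdh5, Kdr and Cldn5 were at 0. Summed macrophage markers were 0 to 5.75 CPM dorsally and 0.476 to 77.9 CPM ventrally. Among widely used genes Tuba1b, a tubulin on chromosome 15, had 28 to 184 CPM dorsally (median 121) and 0 to 151 CPM ventrally (median 93.9). Gapdh, on chromosome 6, was counted in 1 dorsal and 2 ventral libraries and Sdha in 2 and 3, each with a median of 0 on both sides. Of the 6 tested none had an unadjusted p under 0.05 in edgeR, and DESeq2 called none. Of 16 genes of retinal progenitors, 5 had a count and only Atoh7 was tested, at 0 to 8.86 CPM dorsally (median 0) and 0 to 23.1 CPM ventrally (median 0.737). The part of neighbouring tissue in the results above was not tested.

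Mitochondrial rows stood apart from the nuclear ones in depth. Of the 37 rows tested none had an unadjusted p under 0.05 in edgeR or was called by DESeq2, 26 had a log2 fold change above 0, and the median was 0.43. The rows nearest the threshold were mt-Co1, a subunit of cytochrome oxidase, at 57743 ± 10632 CPM (SD, n = 5) against 44289 ± 17057 CPM (SD, n = 7) (log2 fold change 0.48, unadjusted p = 0.0501 and adjusted p = 0.566 in edgeR), and mt-Tr, a transfer RNA. The ribosomal RNA row mt-Rnr2 had 90078 ± 46040.2 CPM (SD, n = 5) against 67001 ± 27935 CPM (SD, n = 7). The row mt-Cytb, a subunit of complex III, had 106379.8 ± 45713 CPM (SD, n = 5) against 98964 ± 14738 CPM (SD, n = 7). Within batch B edgeR called mt-Co1, mt-Rnr1 and mt-Rnr2 as higher, and within the distal sections these 3 and mt-Nd1.

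The contrast was set against the position along the stalk and against the pRPE. The dorsal-ventral effect was not called different between the distal (3 against 3 libraries) and the middle section (2 against 4) for any row by edgeR, with 0 of 4492 called and 224 at an unadjusted p under 0.05. Among the rows described so far, Gpnmb (unadjusted p = 0.0207) and Tenm3 (0.028) had the smallest values, both with an adjusted p of 0.966 in edgeR. In Gpnmb the dorsal distal libraries held 183 to 912 CPM and the middle ones 5.1 and 106 CPM. Between OS and pRPE, 0 of 8071 rows were called by edgeR for a difference of the effect, and 754 had an unadjusted p under 0.05. The smallest adjusted p was 0.367. Among others, Crb2 had an unadjusted p of 0.000498 in edgeR, Trpm3 0.00113, Gpnmb 0.00522 and Gdf11 0.0215. The directions of these differences are not given here. In the pRPE Trpm3 held 0 to 941 CPM (median 291) and Gpnmb 6.56 to 1152 CPM (median 405), scaled over all 30 libraries. In the 4 proximal libraries, which entered only the alternative fit on all 30 libraries, Trpm3 held 95 and 289.9 CPM dorsally and 759 and 0 CPM ventrally (scaled over all 30 libraries). The order seen in the middle and distal stalk was not repeated there. Gpnmb held 0.48 and 172 CPM in the dorsal proximal libraries and none in the ventral ones, and Cdh6 1803 and 323 against 2977 and 613 CPM. The row of Gdf11 held 1741 and 6521 CPM dorsally and 1519.9 and 681 CPM ventrally, again without overlap. Of the 35 rows higher in every dorsal library, 17 had a higher dorsal than ventral mean in the proximal libraries too, beside 41.2% of all rows tested.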

How the data were processed

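The authors checked the reads with FastQC, mapped them to GRCm38 with HISAT2 and quantified genes with StringTie at default settings, and deposited 1 table of estimated counts per gene for all 30 libraries, not normalized. Versions, the annotation and the program that wrote the table are not given in the sources used here. Of its values 270 in 63 genes were not whole and were rounded. The members, gene lists and tests were chosen with earlier results of these data known. Rows with more than 10 counts in at least 3 of the 12 libraries were fitted with edgeR 4.0.16 (R 4.3.3, TMM, quasi-likelihood test) on side, section and batch, and p-values were adjusted by Benjamini-Hochberg over all rows tested. The thresholds for a call were a log2 fold change of 0.58 and an adjusted p of 0.05. The scripts were tested on simulated data. CPM are relative to the TMM-scaled total, and a fold against a side with no count is a bound against 3 counts per library (0.699 to 2.39 CPM), covering counting error only, since reads carried no molecular identifiers.

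Named genes were Mitf, Otx2, Pax2 and Pax6, the 3 members of each list with the smallest p, the 5 higher and 5 lower nuclear rows with the smallest p among those counted in at least 10 libraries, and up to 5 non-overlapping rows each way. Others were named after their values were seen, among them Smo, Kif7, Id3, Vim, Notch1, Mcm7, Cald1, Vps50 and Mest. The alternatives were DESeq2 1.42.0, limma 3.58.1, other filters, scalings and covariates, single batches and sections, and each library left out. The limma fits, DESeq2 with further covariates, the fit without the pair of libraries with fewest rows and the rescaled overlap counts were added after the data were seen.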

Additional observations from a re-analysis of the deposited data

Results flagged for a closer look

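In 53 groups of values 12 had 1 library far from the others by Dixon's test. The rate of about 5% that chance gives is for normally distributed values and does not apply to groups with many libraries at 0. Where all other libraries are at 0 any count is flagged, as for ventral Mitf, Slc45a2 and A930038B10Rik and dorsal Otx2. Dorsal library 33 had a total of 5400977 counts. Among patterning and pigment genes, dorsal library 34 had 0 CPM of Mitf, ventral 39 held 44.9 CPM of Mitf, dorsal 83 held 81.5 CPM of Otx2, ventral 69 held 1297 CPM of Slc45a2 and ventral 69 had 0 CPM of Cdh6. Ventral library 68, the one with the fewest rows counted, had 1229.7 CPM of Or6c8 and 0.534 CPM of Rian. Dorsal library 63 held 11.3 CPM of Wasf2 and 4329.7 CPM of Plin1. It had 0 CPM of 1110038B12Rik, which cannot be told from counting error, since the other 4 dorsal libraries had 1 to 3 counts. Ventral library 88 held 15.1 CPM of A930038B10Rik, where the other 6 ventral libraries had none.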

How the results depend on the processing

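With 0 rows called by edgeR, the count stayed at 0 under 25 of 34 alternatives, every library left out in turn included. DESeq2 called 678 rows, 592 with the library-number block and 299 with the number of detected rows as a covariate. Limma voom called 11, limma on log2(CPM + 1) 1, and 1 with the library-number block. Without a filter edgeR called 4 (Dsg3, Ppp1r7, Slc45a2, Trpm3), within batch B 8 and within the distal sections 9. For the difference between sections the count was 0 to 2 over libraries left out (2 without ventral distal 88), and for that between OS and pRPE 0 to 1 (1 without ventral middle 39). The non-overlapping higher rows were 22 on nuclear counts, 5 by detection alone and 37 to 80 over libraries left out (61 without dorsal 33, 53 without 63, 80 without 34, 54 without ventral 39). The lower ones were 0 by detection alone, 15 without the 2 libraries with the fewest rows, and 4 to 8 over libraries left out (7 without dorsal 83, 8 without ventral 38). The difference in detected rows was -44.67 within batch A and 780.2 without dorsal 84. Fewer libraries or rows enter several of these fits, and otherwise the cause was not tested. In the edgeR fit the library-number block gave 0 calls too. The labels do not say that a library number marks an embryo. The 5 pairs of dorsal and ventral libraries of the same section and number series had correlations of their deviations of -0.423, -0.335, -0.168, -0.0864 and -0.202, against a median of -0.211 in 4 other pairs. For the single rows followed, some of which are not described above, 115 alternative values were past the threshold where edgeR was not. None changed sign while past it. Sparse counts limit all of this: 42.5% of the tested values were 0.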

Other observations

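Dsg3, Scara5 and Tmem260, chosen after their values were seen, were called by edgeR within batch B and within the distal sections. Dsg3, a desmosomal cadherin, had 4219.5, 12595, 897, 0 and 10.4 CPM in the dorsal libraries (distal 33, 63, 83, then middle 34, 84) and a ventral count in distal 88 alone (39.1 CPM), so that the 3 dorsal distal libraries stood above all others. Scara5, a scavenger receptor for ferritin, had 1340.4, 2357, 973, 0 and 235 CPM, with a ventral count in middle 39 alone (85.1 CPM). Tmem260 had 742, 823, 2946, 269 and 416 CPM against 0 to 331 CPM with a median of 0, led by ventral 39. Crb2 and Peg3, chosen in the same way, were called by edgeR in no batch or section. Crb2, an apical polarity protein of neural epithelium on chromosome 2, was counted in all 5 dorsal libraries (308, 19.1, 88.2, 123 and 70.7 CPM) and in none of the 7 ventral ones, with a limma voom adjusted p of 0.00287 and an edgeR adjusted p of 0.367 (adjusted p 0.000146 to 1 over 33 alternatives). Peg3, a paternally expressed zinc finger gene on chromosome 7, had 431, 1571, 688, 805 and 1434 CPM against 0 to 430.2 CPM with a median of 35.4 without overlap, with an edgeR adjusted p of 0.474 and a DESeq2 one of 0.0395, while Mest, also imprinted, had like levels on both sides.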
